A study of Mus musculus with 797 samples.

Results

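The nuclei described here are glutamatergic nuclei that read Cux2 or Lamp5, genes used as markers of the upper layers of the cerebral cortex, and that lacked Rorb, Foxp2 and Tle4, which mark the layers below. They were chosen on measured levels. A nucleus had to hold at least 50000 gene reads and 1000 genes, and to have Slc17a7 at 10 or more CPM (reads of a gene per 1e6 gene reads of the nucleus) with Gad1 and Gad2 together under 10. It also had to have Cux2 or Lamp5 at 10 CPM or more and each of Rorb, Foxp2 and Tle4 under 10. This rule chose 120 of 797 nuclei, 120 of the 781 that passed the limits on reads and genes, and 120 of 385 glutamatergic nuclei. The other 265 glutamatergic nuclei fell into 66 with Rorb but neither Foxp2 nor Tle4 (the Rorb nuclei), 125 with Foxp2 or Tle4, and 74 with none of the 5 layer genes (the unmarked nuclei).

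All groups were C57Bl/6J mice injected in young adulthood with 5e11 genomes per mouse of 1 adeno-associated virus (AAV), a vector that delivers a gene without replicating, in the capsid PHP.eB, which crosses from blood to brain. An enhancer or a promoter in the virus drove H2B-SYFP2, a histone fused to yellow fluorescent protein that marks the nucleus, and nuclei were sorted for yellow fluorescence 3 to 4 weeks later. No nuclei of uninjected mice were analysed here, so every nucleus, members and comparison nuclei alike, carried a vector and passed the sort. The 20 vector labels, of 39 or 40 nuclei each, were 16 AiE enhancers, the promoters CMV and hSyn1, and the elements DLX2.0 and hI56i used for forebrain GABAergic neurons. The labels name no animal, so a vector label was taken as 1 sample, and differences between labels may be differences between animals, dissections or sorts.

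Excitatory neurons of the cortex are arranged in layers by birth order and target. Those of layers 2 and 3 are intratelencephalic: they send axons to other cortical areas and to the striatum, and not to the thalamus or the spinal cord. Cux2, a homeodomain transcription factor, and its relative Cux1 mark the upper layers, and Lamp5, a membrane protein related to lysosomal proteins, is read in upper-layer excitatory neurons and in a class of GABAergic interneurons. Rorb, a nuclear receptor, is best known from layer 4, while Foxp2 and Tle4, a transcription factor and a co-repressor, are best known from corticothalamic neurons of layer 6.

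The measurements are reads per gene, with 1 library per nucleus. The kept nuclei had 50565 to 666436 gene reads and, at the median, 2800 genes, and no pair of nuclei had identical counts. The members had 59683 to 469757 reads (median 283326) and 2687 genes at the median, against 278510 reads and 2678 genes in the other glutamatergic nuclei. The library names carry 3 prefixes, called here set A (AB-S40331), set B (AB-S40317) and set C (AB-S40330); what the prefixes stand for is not stated. Set B stood apart: 78 of its 178 kept nuclei had over 1% mitochondrial reads, a sign of cytoplasm in a nuclear library, and no nucleus of set A did. Of the members, 90 came from set A, 21 from set B and 9 from set C, and 5 of the 21 in set B were over 1%. The comparisons between nucleus classes were therefore made within set A, and sets B and C are given beside them.

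Every nucleus analysed here is labelled striatum, whose principal neurons are GABAergic spiny projection neurons. The members did not carry the markers of that class. Of the 12 genes listed for spiny projection neurons, Drd2, Adora2a, Tac1 and Isl1 had no read in any of the 120 members, 3 members had a read of 3 or more of the list, and its mean level was 0.31 log2(CPM+1) in members and 0.39 in the other glutamatergic nuclei. Of the 13 genes listed for pallial excitatory neurons, the excitatory neurons of the cortex and its relatives, besides Slc17a7, 119 of the 120 members had a read of at least 3, as did 254 of the 265 other glutamatergic nuclei. Of 14 GABAergic genes besides Gad1 and Gad2, which the rule had limited, 7 had no read in any member, among them Slc32a1, Dlx1 and Lhx6, and no member had 3 or more. Marker lists of glia and vessels gave mixed reads. All 4 listed oligodendrocyte precursor genes were at 0 in every member, as were Cx3cr1 and C1qa of 6 microglial genes, Cldn5 and Flt1 of 4 endothelial genes and Aqp4 of 8 astrocyte genes. Slc1a2, a glutamate transporter that astrocytes hold at high levels, was read in 78 members (65%) and in 79.6% of the other glutamatergic nuclei, and the other 6 astrocyte genes in 0.833 to 15% of members. Mbp, of oligodendrocytes, was read in 25.8% of members. Reads of 3 or more astrocyte genes were found in 6 members, of 3 or more oligodendrocyte genes in 3, and of 3 or more microglial or endothelial genes in none. The markers read are those of pallial excitatory neurons and go against the tissue label; the labels do not say how the striatum was dissected.

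Members made up 31.2% of the glutamatergic nuclei (95% interval 26.6 to 36.1, exact Clopper-Pearson, as are all intervals on shares, which cover counting error only). The share was 37.04% (30.95 to 43.4) in set A, 21.4% (13.8 to 30.9) in set B and 20.5% (9.80 to 35.3) in set C. Of all kept nuclei they made up 15.4% (12.9 to 18.1). The share has no replicate check within a label, and no test was made between labels.

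Members were found under 18 of the 20 vector labels. The 2 labels that gave the most were AiE0779m with 16 of 32 glutamatergic nuclei (50.0%, 31.9 to 68.1) and AiE0445h_3xC2 with 16 of 36 (44.4%, 27.9 to 61.9); of all their kept nuclei members were 41.03% and 40%. AiE0401h had 10 of 36, AiE0447h 9 of 27, AiE0391h 8 of 23, AiE0387m 8 of 34 and AiE0078h 8 of 36. AiE0475m had 6 of 14, AiE0410m 6 of 17, hSyn1 6 of 19, AiE0743m_3xC2 6 of 20 and AiE0140h 6 of 31 (19.4%, 7.45 to 37.5). AiE0452h had 4 of 7, DLX2.0 4 of 8, AiE0682h 2 of 7, AiE0600m 2 of 8, CMV 2 of 13 and AiE0390m 1 of 12. hI56i and AiE0450h had no member among 2 and 3 glutamatergic nuclei, too few to set a useful limit. Neighbours in this order overlapped in their intervals, and the intervals of AiE0779m and AiE0140h, both with over 30 glutamatergic nuclei, overlapped as well. The vector labels were spread unevenly over the sets: the 6 members of hSyn1 were all in its 10 glutamatergic nuclei of set A, with none of 9 in sets B and C.

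**Figure D1:**
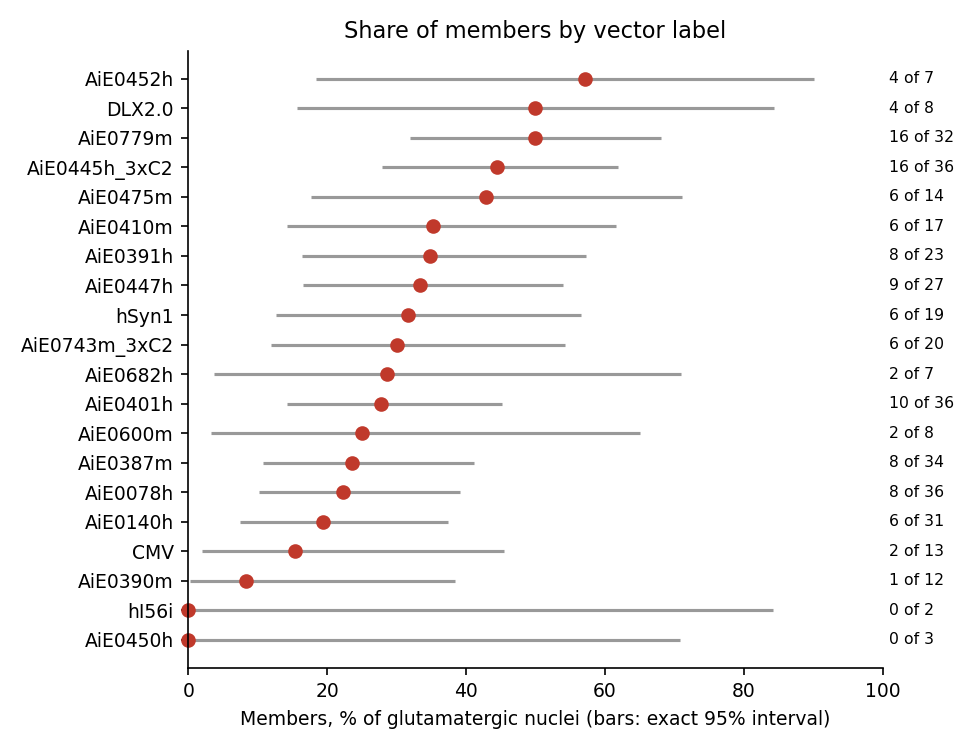
Members as a percent of the glutamatergic nuclei of each vector label, all library sets, with exact 95% intervals for counting error; each label is 1 sample. The shares run from 0% (hI56i and AiE0450h, 2 and 3 nuclei) to 57.1% (AiE0452h, 4 of 7 nuclei), and intervals are wide for labels with few glutamatergic nuclei.

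The genes of the rule are described here without a test, since they chose the nuclei. Slc17a7, the vesicular glutamate transporter of cortical neurons, had a median of 659 CPM in members and 62.3 CPM in the lowest of them, far above the threshold of 10. Lamp5 (mm10 chromosome 2, 136052239 to 136069917, plus strand) passed 10 CPM in 107 members, with a median of 674 CPM and a range of 25.6 to 3016 among those. Cux2 (chromosome 5, 121856366 to 122050102, minus strand) passed in 55 members, with a median of 113 CPM and a range of 11.01 to 434, and was at 0 in 59. Lamp5 alone carried 65 members (54.2%, 44.8 to 63.3), both genes 42 (35%, 26.5 to 44.2) and Cux2 alone 13 (10.8%, 5.90 to 17.8). In set A these shares were 55.6, 32.2 and 12.2%. Among labels with at least 6 members, AiE0475m stood at one end with both genes in 5 of 6, and AiE0447h at the other with both in 1 of 9.

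Few nuclei lay near the thresholds. In 1 member the higher of Cux2 and Lamp5 lay between 10 and 20 CPM, and 3 unmarked nuclei had a read of either gene that stayed under 10, with Lamp5 at most 5.55 and Cux2 at most 2.96 CPM. A read of Rorb, Foxp2 or Tle4 under the threshold was present in 8 members, with Rorb at most 7.77 and Tle4 at most 4.09 CPM, while the lowest Rorb nucleus had 10.1 CPM of Rorb. Only 1 member had any read of Gad1 or Gad2. The demand that Rorb, Foxp2 and Tle4 be absent removed many more: 99 glutamatergic nuclei with Cux2 or Lamp5 at 10 CPM or more were kept out, 35 by Rorb alone and 64 by Foxp2 or Tle4. Lamp5 in particular was not limited to members, since 57 of the 125 Foxp2/Tle4 nuclei passed 10 CPM of it, with a median of 625.1 CPM among those. After each nucleus was thinned to 100000 reads, 114 of the 118 members deep enough were members again.

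**Figure D2:**
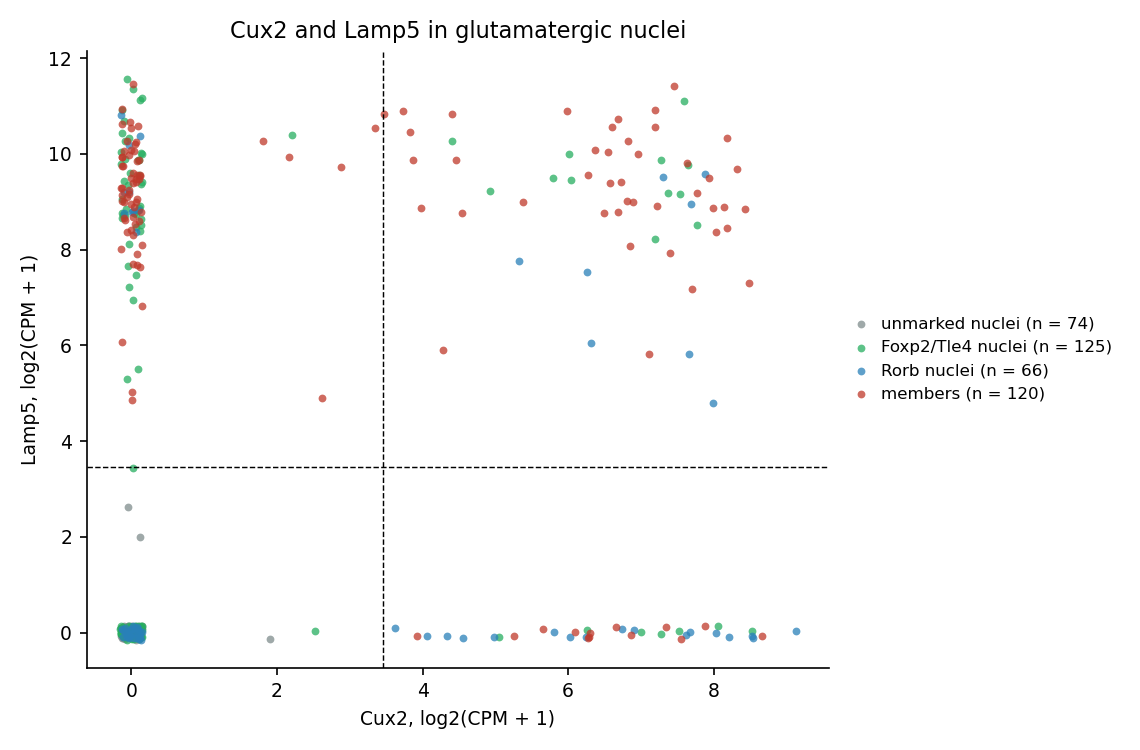
Cux2 against Lamp5 in each of the 385 glutamatergic nuclei, log2(CPM+1) on both axes, coloured by class, with dashed lines at 10 CPM and a small random offset so that points at 0 can be seen. The 65 members with Lamp5 alone lie along the axis where Cux2 is near 0, the 42 with both lie in the upper right, and nuclei kept out by Rorb, Foxp2 or Tle4 lie among them.

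Members had reads of more upper-layer genes outside the rule than the nuclei of the other classes had. The list of 20 upper-layer genes held 18 besides Cux2 and Lamp5. Members had a read of a median of 5 of these 18, against 3 in Rorb nuclei, 2 in Foxp2/Tle4 nuclei and 3 in unmarked nuclei, and 84.2% of members but 55.5% of the other glutamatergic nuclei had 3 or more. Over the 13 vector labels of set A with at least 3 members and 3 other glutamatergic nuclei, the mean level of the list without the rule genes was 1.38 to 2.28 log2(CPM+1) in members (median 1.91) and 0.53 to 1.59 in the others (median 0.97). It was higher in members under 13 of 13 labels, by 0.35 to 1.31. The groups overlapped, and no p-value is given for this score because the list was chosen with results of these data known.

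The upper-layer genes differed in how many members they reached. Enpp2 (chromosome 15, 54838901 to 54952892, minus strand), which codes for autotaxin, an enzyme that makes lysophosphatidic acid, was given with the nuclei as one of their markers, so its level is no independent evidence for the name. It had a read in 65.0% of members (55.8 to 73.5), 33.3% of Rorb nuclei, 37.6% of Foxp2/Tle4 nuclei and 41.9% of unmarked nuclei. Calb1, the calcium-binding protein calbindin, was read in 55.0% of members and in 37.9, 24.8 and 32.4% of those classes, in the same order. Rasgrf2, a Ras exchange factor, followed with 41.7% against 22.7, 16.8 and 18.9%. Syt17, a synaptotagmin, stood at 25.8% against 6.06, 11.2 and 12.2%. Stard8 stood at 17.5% against 6.06, 7.20 and 9.46%. Otof, otoferlin, was read in 14.2% of members, in none of the 66 Rorb nuclei (a limit of 4.55%), and in 4.80 and 4.05% of the other classes. Cux1 and Unc5d, a netrin receptor, were instead highest in Rorb nuclei, at 62.1 and 57.6% against 50.0 and 51.7% in members. A read does not mark the class on its own: Enpp2 was read in 26.4% and Rasgrf2 in 47.8% of the 360 nuclei with Gad1 or Gad2, whose median was 317352 reads.

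Deep-layer genes were read in fewer members than Foxp2/Tle4 nuclei, which the rule had set apart by a pair of such genes. Of 28 genes listed for layers 5 and 6, near-projecting and layer 6b neurons and not used by the rule, members had a median of 1, as had the Rorb and the unmarked nuclei, and the Foxp2/Tle4 nuclei a median of 3. None was read in 48.3% of members, 37.9% of Rorb nuclei, 18.4% of Foxp2/Tle4 nuclei and 43.2% of unmarked nuclei. Syt6, a synaptotagmin, and Zfpm2, a zinc finger cofactor, both known from corticothalamic neurons, were each read in 2.50% of members, in 22.4 and 20.8% of Foxp2/Tle4 nuclei and in none of the 66 Rorb nuclei. Hs3st4, a heparan sulfate sulfotransferase, was read in 10% of members and 32.8% of Foxp2/Tle4 nuclei. Bcl11b (Ctip2) and Fezf2, transcription factors of subcerebral projection neurons, were read in 11.7 and 10% of members, in 38.4 and 30.4% of Foxp2/Tle4 nuclei and in 3.03 and 13.6% of Rorb nuclei. At an equal 100000 reads per nucleus the class with the highest share was the same for each of the 13 genes of the plot, and the shares of members moved by at most 4.84 percentage points, which was the fall of Otof to 9.32%.

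**Figure D3:**
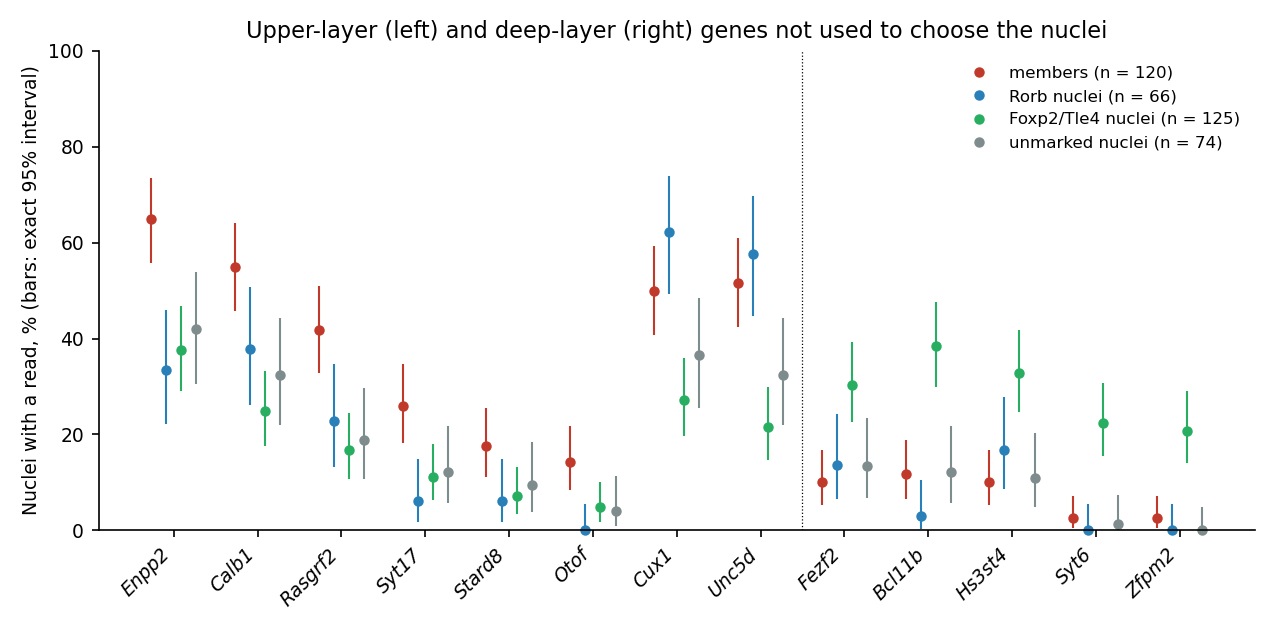
Percent of nuclei with a read of 8 upper-layer and 5 deep-layer genes in the 4 glutamatergic classes, all library sets, with exact 95% intervals; the genes were picked from the lists after their values were seen. Members are highest for Enpp2, Calb1, Rasgrf2, Syt17, Stard8 and Otof, Rorb nuclei for Cux1 and Unc5d, and Foxp2/Tle4 nuclei for all 5 deep-layer genes.

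The members were not uniform, and Fezf2 followed which marker they carried. Fezf2 (chromosome 14, 12342094 to 12348189, minus strand) was read in 12 of the 65 members with Lamp5 alone (18.5%, 9.92 to 30.03). It was read in none of the 55 members with Cux2 (a limit of 5.45%). This was so in every library set, with 0 of 40, 0 of 9 and 0 of 6 members with Cux2 in sets A, B and C against 8 of 50, 3 of 12 and 1 of 3 without it. The 12 nuclei came from 10 vector labels. Bcl11b showed the same direction, in 12 of 65 (18.5%) against 2 of 55 (3.64%, 0.444 to 12.5), and 8 members had a read of both Fezf2 and Bcl11b. These genes were picked from the deep-layer list after their values were seen, so the split is a description.

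Several upper-layer genes ran the other way, although not all of them in the 13 members with Cux2 alone. Calb1 was read in 26 of 65 members with Lamp5 alone (40%, 28.04 to 52.9) and in 40 of 55 with Cux2 (72.7%, 59.0 to 83.9). The gap was narrow in set A, at 25 of 50 against 26 of 40, and wide in sets B and C, at 1 of 12 against 9 of 9 and at 0 of 3 against 5 of 6. Enpp2 was read in 60% of members with Lamp5 alone, 81.0% of those with both and 38.5% of those with Cux2 alone. Syt17 and Stard8 were likewise highest where both markers were present, at 42.9 and 33.3%, against 16.9 and 9.23% with Lamp5 alone. Slc30a3, the zinc transporter of synaptic vesicles, was read in 33.8, 50.0 and 76.9% of members with Lamp5 alone, both, and Cux2 alone. Gria3, an AMPA receptor subunit, was read in 92.3 and 88.1% of members with Lamp5 alone and with both, and in 38.5% of the 13 with Cux2 alone. Of the 28 deep-layer genes, none was read in 36.9% of members with Lamp5 alone, 57.1% with both and 76.9% with Cux2 alone.

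**Figure D4:**
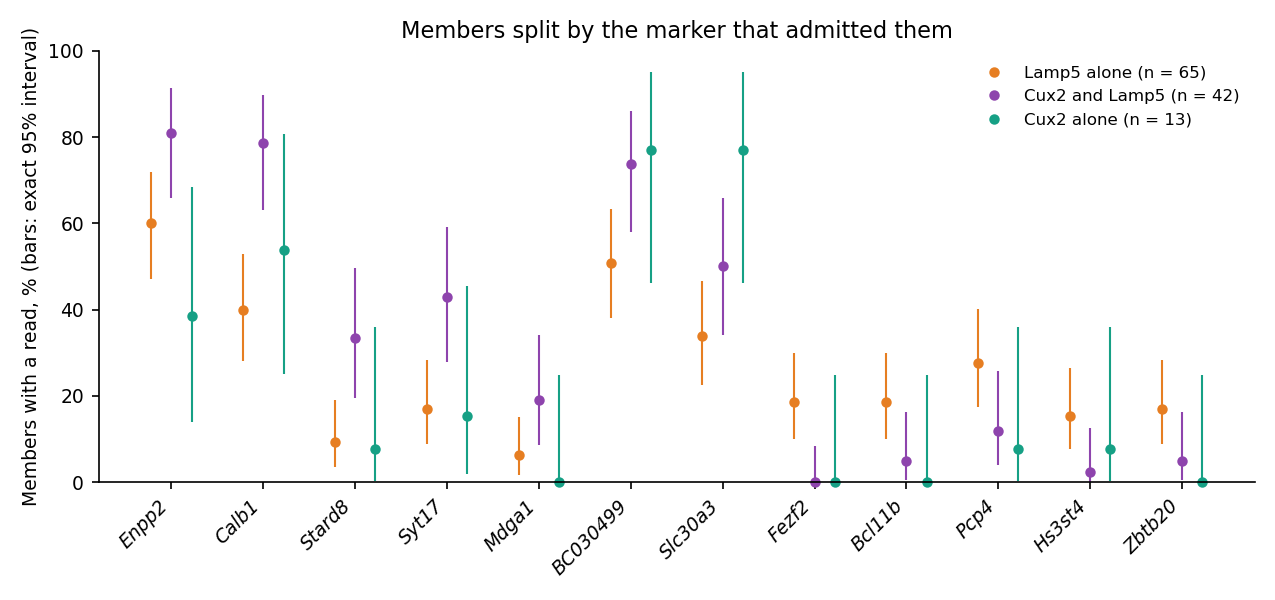
Percent of members with a read of 12 genes, split into Lamp5 alone (65 nuclei), both (42) and Cux2 alone (13), all library sets, with exact 95% intervals; the genes were picked after their values were seen. Fezf2 has reads only in the members with Lamp5 alone, and Enpp2, Syt17 and Stard8 are highest in members with both markers.

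Members were next compared with all other glutamatergic nuclei of set A over the genes the rule had not used. Reads were summed per vector label, which gave 13 pairs holding 88 members and 147 others, and 7900 genes were tested by edgeR's quasi-likelihood test with the label as block. No gene passed an adjusted p of 0.05 (0.0% called), although 357 genes had an unadjusted p under 0.05, 43 higher in members and 314 lower. The members' sums held a median of 1524864 reads and the others' 4424789, and the median log2 difference over all tested genes was -0.41; whether the uneven sums set that shift was not tested. Other tools gave other counts. DESeq2 called 442 genes (5.59%), 48 higher in members (0.608%) and 394 lower (4.99%). limma, fitted to the mean log2(CPM+1) over the nuclei of each label and class so that every label had equal weight, called 8 (0.101%), with a median difference of 0.04 over all genes. The 8 are described next as calls of that alternative, which the edgeR test did not make, and they were singled out after their values were seen.

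By limma, 7 genes were higher in members (0.0886% of those tested) and 1 was lower (0.0127%). Levels are means of log2(CPM+1) over the nuclei of a class under a label, given as the lowest, median and highest of 13 labels. Fam19a1 (chromosome 6, 96113154 to 96657198, plus strand), a secreted chemokine-like protein of neurons, stood at 3.82, 7.37 and 10.4 in members and at 1.26, 3.66 and 7.80 in the others. It was higher in members under 12 of 13 labels, by 3.35 ± 0.63 (SE; adjusted p = 0.0049). Sorbs2, a cytoskeletal adaptor, stood at 5.86, 9.46 and 10.2 in members and 2.72, 6.75 and 9.78 in the others, a difference of 2.68 ± 0.50 (limma adjusted p = 0.0049; higher under 12 of 13). Both genes had wide ranges that overlapped between the classes.

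Prkca (chromosome 11, 107933387 to 108343928, minus strand), protein kinase C alpha, was the 1 of the 8 whose classes did not overlap, at 4.19, 5.198 and 6.21 in members against 0.96, 2.53 and 3.67 in the others. Its difference was 2.696 ± 0.55 (limma adjusted p = 0.0105, higher under 13 of 13 labels), with a limma adjusted p of 0.0524 on log2(CPM+10). How many of all tested genes had classes that did not overlap was not counted, in this or the later comparisons. A lack of overlap is therefore a description of the named genes only. Tmem108, a transmembrane protein of neurons, stood at 5.81, 8.19 and 10.1 against 3.93, 5.26 and 7.25, a difference of 2.53 ± 0.49 (limma adjusted p = 0.0081; 12 of 13 labels). Enpp2 stood at 2.85, 6.46 and 8.93 against 0, 2.76 and 6.18, a difference of 3.21 ± 0.66 (limma adjusted p = 0.0105; 10 of 13), which became p = 0.0556 without hSyn1. C730002L08Rik, an unnamed gene model, differed by 2.88 ± 0.59 (limma adjusted p = 0.0105; 12 of 13) and lost the call without AiE0387m, AiE0401h or AiE0410m, with a highest p of 0.0781. The 8 genes of this comparison were named under a rule that asked for the same direction in sets B and C pooled, so that direction is no further support.

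Chgb (chromosome 2, 132781278 to 132795079, plus strand), chromogranin B of dense-core vesicles, was the gene lower in members. It stood at 2.19, 5.15 and 8.995 in members and 6.08, 7.92 and 10.99 in the others, a difference of -2.64 ± 0.54 (limma adjusted p = 0.0105; lower under 11 of 13 labels). The call was lost without AiE0078h or AiE0401h, with a highest p of 0.0826. edgeR gave it an adjusted p of 0.0804 in the summed reads. It had a read in 62.5% of members, 89.4% of Rorb nuclei, 87.2% of Foxp2/Tle4 nuclei and 75.7% of unmarked nuclei.

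Malat1 (chromosome 19, 5795690 to 5802672, minus strand), a long RNA retained in the nucleus, took a larger part of the reads in members. Its median was 19.03% of reads in members of set A and 16.4% in the other glutamatergic nuclei, and within the members 21.2% with both markers, 18.2% with Lamp5 alone and 14.4% with Cux2 alone (11 nuclei), the last of these below the other glutamatergic nuclei. Among the others the median was 18.2% in Rorb nuclei, near that of members, 15.9% in Foxp2/Tle4 nuclei and 16.3% in unmarked nuclei. The ranges of single nuclei overlapped widely, from 6.94 to 32.5% in members and from 4.61 to 27.3% in the other glutamatergic nuclei. On the log2(CPM+1) scale it was higher under 12 of 13 labels by 0.26 with an SD of 0.21 over labels (exact sign-flip permutation test, two-sided, p = 0.00146; limma adjusted p = 1.77e-05; edgeR adjusted p = 0.0803). limma's SE of 0.04 for this gene is smaller than the spread over labels would give, which is why the exact test is set beside it.

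**Figure D5:**
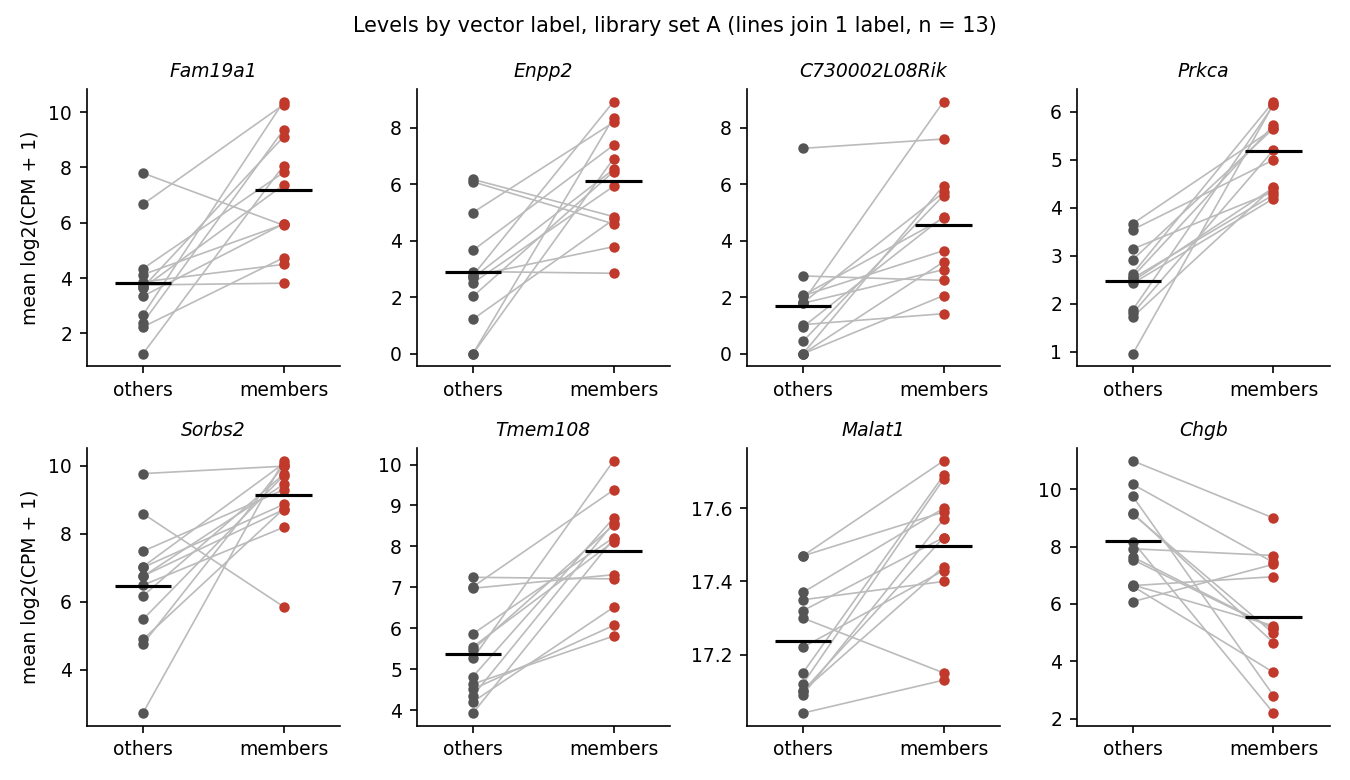
Mean log2(CPM+1) of the 8 genes called by limma, in the other glutamatergic nuclei and in members of set A; each line joins the 2 classes of 1 vector label, 13 labels, and black bars are means over labels. Only Prkca shows no overlap between the classes, and Malat1 differs by 0.26 at levels above 17.

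Reads of cytoplasmic genes were lower on average in members than in the others pooled, although not lower than in the Rorb nuclei. The mean level of Rplp0, Rps3, Eef1a1 and Actb, transcripts that are abundant in cytoplasm, had a median of 2.22 log2(CPM+1) over labels in members and 2.80 in the others, and was lower in members under 11 of 13 labels, with a mean difference of -0.60 and an SD of 0.82 (exact sign-flip permutation test, two-sided, p = 0.0242; 0.0968 after adjustment over the 4 quality measures). Over the single nuclei of set A this level averaged 2.44 in members and 2.31 in Rorb nuclei. It averaged 3.08 in Foxp2/Tle4 nuclei and 2.77 in unmarked nuclei, and no test was made between these classes. With that level as a covariate limma kept 1 of the 8 calls, Malat1 (adjusted p = 1.69e-05), while the other 7 kept their direction with adjusted p of 0.258 to 0.985. The differences themselves were 2.96 for C730002L08Rik, 2.69 for Fam19a1, 2.65 for Tmem108, 2.52 for Prkca, 2.5 for Sorbs2, 2.35 for Enpp2 and -2.12 for Chgb, with SEs of 0.63 to 0.81 in place of 0.49 to 0.66. The covariate was added after the data were seen, and its part in the differences was not tested further. The median number of reads per nucleus differed by a mean of -2161 over 13 labels (exact permutation p = 0.765). Genes per nucleus at 100000 reads were higher in members by 100.7 with an SD of 192 over 12 labels (exact permutation p = 0.0962), with medians of 2483 and 2453. Mitochondrial reads differed by -0.00169 percentage points (exact permutation p = 0.768). The astrocyte list had a mean level of 0.97 in members and 1.41 in the other glutamatergic nuclei over all sets, and its part in the differences was not tested.

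Groups of genes showed few calls in this comparison. Of the 18 upper-layer genes outside the rule 12 were tested, and 10 were higher and 2 lower in members by limma with a median of 0.75 against 0.04 over all genes; only Enpp2 was called. Calb1 differed by 2.12 (limma adjusted p = 0.13), Rasgrf2 by 1.997 (0.102) and Cux1 by 1.56 (0.232). All 3 tested genes of layer 5 were lower in members and none was called. No gene was called among 17 glutamate receptor genes (9 higher, 8 lower), 30 potassium channel genes (17 and 13), 25 calcium and sodium channel genes (18 and 7), 14 cadherins (7 and 7), 33 axon guidance genes (16 and 17), 6 neuromodulator receptors (4 and 2), 35 synaptic adhesion genes (22 and 13) or 10 immediate early genes (6 and 4), by limma or by edgeR. Over all 7900 genes edgeR called 0.0% and limma 0.101%. Lists of this size could hardly hold a call at those shares, so the lack of calls is no result about these groups. The share of all tested genes that were higher in members was not counted, so the splits are descriptions.

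Against the Rorb nuclei, the nearest class by layer, Gria3 set the members apart. This comparison had 5 vector labels (AiE0078h, AiE0140h, AiE0387m, AiE0401h and AiE0447h) with 29 members and 24 Rorb nuclei. edgeR called 6 of 7900 genes (0.0759%), 5 higher in members (0.0633%) and 1 lower (0.0127%); limma called 2 (0.0253%) and DESeq2 452 (5.72%; 4.15% higher and 1.57% lower). Gria3 (chromosome X, 41400854 to 41678601, plus strand) stood at 5.83, 7.498, 9.40, 8.71 and 8.02 log2(CPM+1) in members and at 1.23, 2.26, 2.98, 2.78 and 2.15 in Rorb nuclei, in the order of the labels above. The classes did not overlap, and how many of the 7900 genes shared that over these 5 labels was not counted. Its log2 fold change in summed reads was 4.12 ± 0.80 (SE, edgeR adjusted p = 0.000792), and limma also called it (5.61 ± 1.07, adjusted p = 0.0289). Without AiE0140h the edgeR adjusted p was 0.0878, with no vector block 0.379, and on the 3734 genes read in at least 25% of nuclei 0.924. It was read in 85% of members, 37.9% of Rorb nuclei and 85.6% of Foxp2/Tle4 nuclei.

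The calls of Dkkl1, Id2 and Atp2b1 against Rorb nuclei each depended on more than 1 label. Dkkl1, a secreted protein related to the Dickkopf family, was lower in members: it stood at 1.14 under AiE0078h and at 0 under the other 4 labels, against 3.68 to 5.84 in Rorb nuclei (edgeR adjusted p = 0.0027; limma 0.197). It was read in 11.7% of members and 60.6% of Rorb nuclei over all sets. The call was lost without AiE0387m (p = 0.101), AiE0401h (0.14) or AiE0447h (0.537). Id2, an inhibitor of helix-loop-helix factors, stood at 6.29, 4.53, 4.68, 6.499 and 0.96 in members and at 0 under 4 labels and 1.99 under AiE0447h in Rorb nuclei (edgeR adjusted p = 0.0173; limma 0.406), and lost the call on leaving out any 1 of the labels other than AiE0447h (highest p 0.534). Atp2b1, a calcium pump of the plasma membrane, differed by 1.32 ± 0.31 in log2 fold change (edgeR adjusted p = 0.0233; limma 0.818), with 10.2 to 11.2 in members and 7.26 to 10.2 in Rorb nuclei; without any 1 of the 5 labels it was not called (adjusted p of 0.094 to 0.323).

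Malat1 was also called by edgeR against Rorb nuclei, with a log2 fold change of 0.33 whose SE of 0.00791 is far below the spread over labels. Its mean log2(CPM+1) difference was 0.18 with an SD of 0.21 over 5 labels, higher under 4 of 5 (exact sign-flip permutation p = 0.188, the smallest possible being 0.0625). Its limma adjusted p was 0.406. Meg3, another long RNA, was called higher in set A but pointed the other way in sets B and C pooled (-0.16). Enpp2 was higher under 5 of 5 labels by 3.24 ± 1.14 without passing (limma adjusted p = 0.818). Of the upper-layer list 9 of 12 tested genes were higher by limma and none was called, with a median of 0.89 against 0.16 over all genes.

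Against the Foxp2/Tle4 nuclei, upper-layer Cux1, Calb1 and Rasgrf2 were higher in members, and Pcp4, Chgb and Garnl3 lower, by limma. There were 9 vector labels with 70 members and 60 Foxp2/Tle4 nuclei, and their sums had medians of 1670657 and 1983468 reads. Within labels the sums were uneven in both directions. Members had 1249109 reads against 3227385 under AiE0140h, and 2358024 against 981757 under AiE0447h. edgeR called 3 genes (0.038%), 2 higher (0.0253%) and 1 lower (0.0127%), limma 65 (0.823%), 34 higher (0.43%) and 31 lower (0.392%), and DESeq2 565 (7.15%; 4.14% higher and 3.01% lower). The genes edgeR called were R3hdm1, Malat1 and Chgb. R3hdm1, which codes for a protein with an R3H nucleic acid-binding domain, lay at 11.3 to 12.5 log2(CPM+1) in members (median 11.6) and 9.19 to 11.2 in Foxp2/Tle4 nuclei (median 10.6) and did not overlap (edgeR log2 fold change 0.99 ± 0.17, adjusted p = 0.0272). It was not called without AiE0387m, AiE0401h or AiE0743m_3xC2. Malat1 was higher under 9 of 9 labels (edgeR 0.44 ± 0.05, adjusted p = 0.00063; exact sign-flip permutation p = 0.00391, the smallest 9 labels can give). Its mean log2(CPM+1) difference was 0.377 with an SD of 0.228 over labels, a spread that would give a larger SE than that of edgeR. Chgb lay at 2.19 to 7.69 (median 5.14) in members and 7.32 to 10.8 (median 8.73) in the others, lower under 9 of 9 (edgeR -1.92 ± 0.30, adjusted p = 0.0109; 0.0547 without AiE0743m_3xC2).

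Among limma's calls against the Foxp2/Tle4 nuclei, Cux1 (chromosome 5, 136248135 to 136567490, minus strand), the relative of Cux2, lay at 3.04 to 5.46 in members (median 3.76) and at 0 to 1.60 in the others (median 0.71). The groups did not overlap, and the difference of 3.16 ± 0.64 (adjusted p = 0.00192) was called with any 1 label left out. Rasgrf2 differed by 2.60 ± 0.60 (limma adjusted p = 0.0101; 0.0574 without AiE0779m). Calb1 differed by 2.90 ± 0.75 (limma adjusted p = 0.0342) and was called in 3 of 9 fits with 1 label left out, and not with the cytoplasmic covariate (adjusted p = 0.25), under which Cux1 and Rasgrf2 were called. The rest of the upper-layer list was not called: 11 of 12 tested genes were higher in members, with a median of 1.08 against 0.01 over all genes, and Enpp2 differed by 2.04 (adjusted p = 0.282) and Unc5d by 1.98 (0.179). edgeR called none of the 12.

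The largest limma differences lay outside the layer lists. BC030499, an uncharacterised gene, stood at 2.37 to 10.03 in members and 0 to 3.89 in Foxp2/Tle4 nuclei, a difference of 4.39 ± 0.72 (limma adjusted p = 9.55e-05; higher under 9 of 9 labels). Tmem108 (4.37), Ptn, a heparin-binding growth factor (4.28), and Fam19a1 (4.21) were also higher under 9 of 9, with limma adjusted p of 8.89e-05, 0.000253 and 0.00027. Cacna2d3, an auxiliary subunit of calcium channels, was higher under 8 of 9 by 3.78 ± 0.74 (limma adjusted p = 0.00135). Lower in members were Garnl3, which has a GTPase-activating domain, at 0.49 to 4.08 against 4.56 to 9.50, and A830018L16Rik, an unnamed gene model, at 0 to 4.49 against 4.82 to 8.21. Pcp4 (chromosome 16, 96467606 to 96525793, plus strand), a calmodulin regulator known from layers 5 and 6, stood at 0 to 2.18 against 3.80 to 7.04. None of these 3 overlapped, and their differences were -4.55 ± 0.70, -4.52 ± 0.73 and -4.03 ± 0.69 (limma adjusted p = 5.91e-05, 8.89e-05 and 0.000227). Pde4d, a phosphodiesterase of cyclic AMP, was lower under 8 of 9 with a difference of -4.2 ± 0.74 (limma adjusted p = 0.000259). With cytoplasmic reads as a covariate 41 of the genes tested were called in place of 65.

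Other gene groups held a few calls in this comparison, all by limma and none by edgeR; over all 7900 genes limma called 0.43% higher and 0.392% lower. Of 25 calcium and sodium channel genes 2 were higher, Cacna2d3 and Cacng3 (3.27, adjusted p = 0.00617), a partner of AMPA receptors. Of 33 axon guidance genes 2 were lower, the semaphorin receptor Nrp1 (-3.18, p = 0.00282) and Sema3e (-2.12, p = 0.0268). Htr1f, a serotonin receptor, was lower (-3.22, p = 0.00169), the 1 call among 6 neuromodulator receptors, and Tenm1, a teneurin, was lower (-3.45, p = 0.00181), the 1 call among 35 synaptic adhesion genes. Of 14 cadherins Cdh12 was higher (2.83, p = 0.0498) and Cdh18 lower (-2.32, p = 0.0223). In sets B and C pooled Cdh12 pointed the other way (-0.562). Calls of Cdh12, Cdh18 and Sema3e were each lost in more than 3 of the 9 fits with 1 label left out, and with the cytoplasmic covariate (adjusted p = 0.0757, 0.124 and 0.12). Neither glutamate receptors nor potassium channels held a call. Of the deep-layer genes, Bcl11b (-1.82, p = 0.118) and Fezf2 (-1.40, p = 0.311) were not called.

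Against the 74 unmarked nuclei little was called. Over 10 labels with 75 members and 42 unmarked nuclei, edgeR called Malat1 alone (0.0127%; log2 fold change 0.36 ± 0.04, adjusted p = 4.7e-06), limma called none (0.0%, with 492 genes at an unadjusted p under 0.05) and DESeq2 744 (9.42%; 8.15% higher and 1.27% lower). Malat1 was higher under 7 of 10 labels, by a mean of 0.198 log2(CPM+1) with an SD of 0.265 over labels (exact sign-flip permutation p = 0.0469, limma adjusted p = 0.0549). The SE of edgeR for this gene is smaller than that spread would give, so its p-value does not measure the spread. Enpp2 differed by 1.64, Calb1 by 1.65 and Fam19a1 by 3.02 on the log2(CPM+1) scale, with limma adjusted p of 0.767, 0.751 and 0.301. All of these comparisons share the members of set A, so their lists of calls are not independent of each other.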

How the data were processed

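The authors deposited raw read counts per gene and nucleus, in which PCR copies of 1 molecule count separately because SMART-Seq v4 has no molecular identifiers; libraries were made with Nextera XT, per the labels. STAR 2.7.2a and build mm10 are named in the submitters' processing notes; the read counter, annotation, strand setting and treatment of introns were not given in the sources used here, so overlapping genes may share reads. Of 2501 columns 797 matched the samples by library name and 1704 were not used. Of 32285 gene rows 32158 received a symbol, and rows without one held 0.0931% of reads. Positions are GENCODE M21 on mm10, counted from 1.

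16 nuclei were left out, 9 under 50000 reads and 8 under 1000 genes. Doublets were not called, as a library held 1 sorted nucleus. The members, gene lists and tests were chosen with earlier results of these data known. Counts of set A were summed per vector label and class, for labels with at least 3 nuclei of each, and tested with edgeR 4.0.16 (TMM, quasi-likelihood, label as block, two-sided, Benjamini-Hochberg) on 7900 genes with a read in at least 10% of glutamatergic nuclei, without the 8 genes of the rule. limma 3.58.1 on mean log2(CPM+1) and DESeq2 1.42.0 were alternatives (R 4.3.3; numpy 2.4.6, pandas 2.3.3, scipy 1.17.1, matplotlib 3.10.9 in Python 3.11.15). The fits were tested on simulated data, but no outcome of that is given here, so it is no support for the calls. Named genes are those past an adjusted p of 0.05 with a read in at least 25% of nuclei of the higher class and the same sign in sets B and C, up to 15 in each direction against all others and 5 against each class; list genes could also be named, and limma's calls are named by the same limits. Summed reads per label and class in the first comparison were 501583 to 6042182, and the fewest nuclei behind a mean were 3. Labels were the replicates of the tests, and nothing says that they are separate animals, so the spread between them may be technical. For Malat1 the SEs of edgeR against Rorb, Foxp2/Tle4 and unmarked nuclei and of limma against all others were below that spread. The p-values of those fits therefore do not measure it. Intervals on shares have a level of 95%, and the limit for a share of 0 is 3 nuclei of the total.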

Additional observations from a re-analysis of the deposited data

Results flagged for a closer look

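In 3 places 1 vector label lay far from the other 4 of the comparison with Rorb nuclei, by Dixon's test at its 95% limit, which chance passes in about 1 of 20 groups. How many groups were screened is not given here, so the 3 flags cannot be set against that rate. The Atp2b1 difference was 3.66 log2 units under AiE0447h and 0.64 to 1.19 under the others. The Id2 difference was -1.03 under AiE0447h and 4.53 to 6.5 under the others. The members' Dkkl1 level was 1.14 under AiE0078h and 0 under the others. With the other labels all at 0, any level above 0 would have been flagged, so the test decides nothing for Dkkl1.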

How the results depend on the processing

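The number of called genes moved most with the tool. Against all other glutamatergic nuclei edgeR called 0 genes, and 442 were called by DESeq2, 8 by limma, 7 on log2(CPM+10), 1 with the cytoplasmic level as covariate, 1 with library totals, 13 with no filter on low counts, 8 with each label within a set as a pair, 5 with sets summed, 1 after thinning and 1 at 20 CPM; with 1 label left out edgeR called 0 to 2 and limma 6 to 16. Against Rorb nuclei 6 became 452 by DESeq2, 2 by limma, 1 on log2(CPM+10), 0 with the 25% filter and 0 with no vector block, and 2 to 5 with 1 label left out. Against Foxp2/Tle4 nuclei 3 became 565 by DESeq2, 65 by limma, 55 on log2(CPM+10), 41 with the cytoplasmic covariate, 26 with no filter, 5 with labels of at least 2 nuclei, 0 with at least 5, 8 with sets summed and 8 after thinning, and 1 to 3 (limma 52 to 62) with 1 label left out. Against unmarked nuclei 1 became 744 by DESeq2, 0 with library totals, 4 with no filter, 0 with the 25% filter, 0 by limma, 0 on log2(CPM+10), 2 with at least 2 nuclei and 3 after thinning, and 1 with any label left out. The members' share of glutamatergic nuclei was 31.2%, 37.04% in set A alone and 34.5% without set B, and 30.4 to 31.9% under other thresholds, filters and thinning. With 1 label left out, the difference in genes per nucleus was 76.3 to 134 (p = 0.0244 without AiE0410m by the exact permutation test), in reads -7009 to 952, in mitochondrial percent -0.00271 to 0.00142 and in the cytoplasmic level -0.75 to -0.50. Of the values for single genes 521 kept direction and side of the threshold, 264 passed it only in the alternative and 56 no longer passed; none reversed. No paired analysis was possible because replicate numbers count nuclei within a vector label, and no label pairs a nucleus of one vector with a nucleus of another; the vector label was the block instead. The cause of these changes was not tested.

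Depth limits the reading of a gene at 0 in a nucleus, and the 3 to 15 members per label limit every mean, and the members are those of 1 set of thresholds on sparse counts.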

Other observations

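Immediate early genes, which rise with neuronal activity and with handling of tissue, were read in members at widely spread levels between labels. Over the 13 labels of set A the mean level of the list was 1.13 to 3.45 log2(CPM+1) in members and 1.25 to 4.25 in the other glutamatergic nuclei, higher in members under 8 labels and lower under 5. Arc, which codes for a synaptic regulator, was read in 48.3% of members, 65.2% of Rorb nuclei and 67.2% of Foxp2/Tle4 nuclei, and differed from all others by -1.67 (limma adjusted p = 0.335). Neurod6, a transcription factor of pallial excitatory neurons, was read in 32.5% of members and in 59.1, 48.8 and 58.1% of Rorb, Foxp2/Tle4 and unmarked nuclei, with a difference of -1.79 from all others (limma adjusted p = 0.228).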
